A study of Drosophila melanogaster with 3 samples.

Results

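The genes described here encode subunits of the Mediator complex and basal transcription factors of RNA polymerase II. They were taken by symbol, as the protein-coding genes on the chromosome arms whose names begin with MED or Taf and a digit, or with TfII, and they number 49 of 13945. By role they comprise 25 Mediator genes, 15 genes of TFIID subunits and their close paralogs, 8 genes of the general factors TFIIA, TFIIB, TFIIE and TFIIF, and TfIIS, an elongation factor that the symbol rule takes in. Binding of Runt was mapped by ChIP-seq with an anti-GFP antibody in Drosophila melanogaster embryos of 0 to 16 h. All samples were whole embryos of 1 transgenic line that stably expresses Runt with GFP at its C-terminus, in 1 group of 3 biological replicates that share a donor entry, with sex not recorded and no second condition. The labels name run as the antibody's target and anti-GFP as the antibody. What drives the fusion, and whether the line keeps its own run gene, the labels do not say. Sites bound in some cells or at some hours only cannot be told apart in such material.

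Mediator is a large complex that links activators bound at enhancers to RNA polymerase II at promoters. Its head and middle modules contact the polymerase, and its tail contacts many activators. TFIID, made of the TATA-binding protein and the TAFs, recognises core promoter DNA, and TFIIA, TFIIB, TFIIE and TFIIF help to assemble the polymerase there. Nearly all cells use most of these proteins, so most of the genes count as housekeeping genes. Taf12L, a testis TAF homolog, and the TFIIA paralog TfIIA-S-2 need not be housekeeping genes. Runt belongs to the RUNX transcription factors and acts in segmentation and sex determination of the embryo. The RUNX sequence searched here is TGCGGTC or TGCGGTT on either strand, and likewise TGTGGTC or TGTGGTT.

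Of the 49 genes, 8 had a summit of the reproducible peak list within 500 bases of an own transcription start: Taf5, Taf2, MED30, TfIIA-L, Taf4, MED31, MED27 and MED4. This is 16.3% (95% Clopper-Pearson exact interval 7.32 to 29.7, which covers counting error only), beside 11.4% of all 13945 protein-coding genes. The interval includes the share of all genes. The reproducible list, filtered by the authors on the irreproducible discovery rate (IDR), holds 3065 peaks, the same ones as the 3065 pooled peaks of highest signal. The pooled list and each replicate's list hold 30000 peaks each, a fixed length from which read depth cannot be known. Peaks are given below by their rank within a list and by the authors' signal value, of unstated scaling, so signal is compared only within a list.

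The DNA between MED30 and Rev1, between pll and the downstream start of TfIIA-L, around the Taf4 summit and between elm and MED27 is shown because these summits lie in it and it holds no annotated exon. Each is read from the Release 6 (dm6) sequence along the strand of the gene it is named for, and capitals mark the 11 bases centred on the pooled summit.
MED30: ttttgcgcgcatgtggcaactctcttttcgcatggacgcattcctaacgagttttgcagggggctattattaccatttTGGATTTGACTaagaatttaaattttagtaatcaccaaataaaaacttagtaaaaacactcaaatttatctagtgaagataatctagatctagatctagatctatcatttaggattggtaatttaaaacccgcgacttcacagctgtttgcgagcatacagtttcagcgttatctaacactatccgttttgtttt
TfIIA-L: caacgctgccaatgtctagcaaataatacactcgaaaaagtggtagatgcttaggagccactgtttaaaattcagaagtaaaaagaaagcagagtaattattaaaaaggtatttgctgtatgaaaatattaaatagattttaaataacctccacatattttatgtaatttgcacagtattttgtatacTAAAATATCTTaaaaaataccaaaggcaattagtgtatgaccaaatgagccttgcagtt
Taf4: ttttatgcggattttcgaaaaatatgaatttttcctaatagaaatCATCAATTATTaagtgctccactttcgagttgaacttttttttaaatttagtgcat
MED27: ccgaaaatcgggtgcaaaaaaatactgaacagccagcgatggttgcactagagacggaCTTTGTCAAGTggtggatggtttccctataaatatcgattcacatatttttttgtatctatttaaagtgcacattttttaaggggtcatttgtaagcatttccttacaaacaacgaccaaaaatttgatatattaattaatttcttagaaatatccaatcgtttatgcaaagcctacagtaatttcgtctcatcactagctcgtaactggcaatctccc
The MED30 stretch is chr3L:654090-654362 on the minus strand (273 bases, GC content 35.2%), and the TfIIA-L stretch chr3R:27253183-27253429 on the plus strand (247 bases, 29.6%). The Taf4 stretch is chr3L:16113592-16113692 on the plus strand (101 bases, 25.7%), and the MED27 stretch chr3R:5654862-5655138 on the plus strand (277 bases, 35.7%). The longest uninterrupted run of A and T was 13 bases in the MED30 and TfIIA-L stretches, 15 in Taf4 and 16 in MED27. None of these stretches held a RUNX sequence on either strand.

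The strongest own-start peaks belonged to TFIID genes. Taf5, which encodes a scaffold subunit of TFIID with WD40 repeats, had signals of 98.2, 119.8 and 164.0 in replicates 1, 2 and 3 (ranks 340, 489 and 378) and 384.1 in the pooled list (rank 370). Its peak spans chr2R:10879746-10879937, with the summit 191 bases upstream of the Taf5 start. The 3 replicates place the summit within 29 bases of each other. The divergent neighbour Pex6, a peroxisome biogenesis gene, starts 110 bases beyond that summit, nearer to it than Taf5 does.

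Taf2 encodes the TFIID subunit that contacts the initiator element. Its signals were 76.8, 134.4 and 148.2 in replicates 1, 2 and 3 (ranks 570, 374 and 483) and 369.1 in the pooled list (rank 411, chr3L:9888671-9889074). The summit lies 190 bases upstream of Taf2 and inside CalpB, a calpain protease gene that is transcribed the other way and has annotated starts 79 and 421 bases upstream of the Taf2 start. Replicate summits here were spread over 184 bases, the widest spread of the 8 genes, and a second pooled peak at rank 4809 lies within 500 bases of the same start.

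Taf4 encodes a further scaffold TAF with a histone-fold domain. Its signals were 52.5, 52.3 and 93.1 in replicates 1, 2 and 3 (ranks 1287, 2722 and 1255) and 195.3 in the pooled list (rank 1475, chr3L:16113440-16113843). The summit lies in a Taf4 intron, 148 bases upstream of an internal Taf4 start, and no other protein-coding gene starts within 500 bases. It is the only 1 of the 15 TFIID genes with an own-start IDR summit away from a neighbour's start.

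The Mediator genes with own-start IDR summits were MED30 and MED27, whose products lie between head and tail, and MED31 and MED4, of the middle module. MED30 had signals of 64.8, 79.1 and 117.1 in replicates 1, 2 and 3 (ranks 824, 1136 and 808) and 269.9 in the pooled list (rank 785, chr3L:654077-654480). Its summit lies 190 bases upstream of MED30 and 84 bases from the start of Rev1, a gene of translesion DNA synthesis, in the first stretch printed above. The replicate summits lay within 21 bases, the narrowest spread of the 8.

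MED31 had signals of 36.3, 76.3 and 60.4 in replicates 1, 2 and 3 (ranks 2711, 1235 and 2832) and 187.7 in the pooled list (rank 1576, chr3R:4641595-4641998). Its summit lies 166 bases upstream, nearest to a start of CG9775 at 41 bases, and slx1 has the same annotated start as MED31. MED27 had signals of 44.8, 87.9 and 44.7 in replicates 1, 2 and 3 (ranks 1732, 918 and 4941) and 187.6 in the pooled list (rank 1578, chr3R:5654723-5655126). Its summit is 214 bases upstream of MED27 and 64 bases from the start of elm, so the capitals in the printed MED27 stretch stand nearer to its elm end. In both genes 1 replicate departed from the others in rank: replicate 2 was high for each, and for MED27 replicate 3 lay below the strongest 3065.

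MED4, a middle-module subunit, had the weakest of these peaks. Its signals were 28.2, 33.8 and 75.8 in replicates 1, 2 and 3 (ranks 4562, 6551 and 1842) and 136.6 in the pooled list (rank 2826, chr3L:7250456-7250859). Only replicate 3 placed it among its strongest 3065 peaks. The summit is 131 bases upstream of MED4 with no other protein-coding start within 500 bases. A gene that is not protein-coding, asRNA:CR43470, starts within 500 bases of the MED4 start.

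Among the general factors, TfIIA-L alone had an own-start IDR summit. It encodes the large TFIIA subunit precursor, and TFIIA stabilises the TATA-binding protein on DNA. Its signals were 42.4, 88.6 and 87.4 in replicates 1, 2 and 3 (ranks 1951, 897 and 1400) and 210.6 in the pooled list (rank 1274, chr3R:27253174-27253577). The summit lies 54 bases upstream of its downstream start at position 27253430, and pll, which encodes the kinase Pelle of the Toll pathway, starts 248 bases upstream of that start. A stronger IDR summit, at rank 325, was counted for TfIIA-L 4673 bases upstream of its first start and lies inside CG5984.

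**Figure D1:**
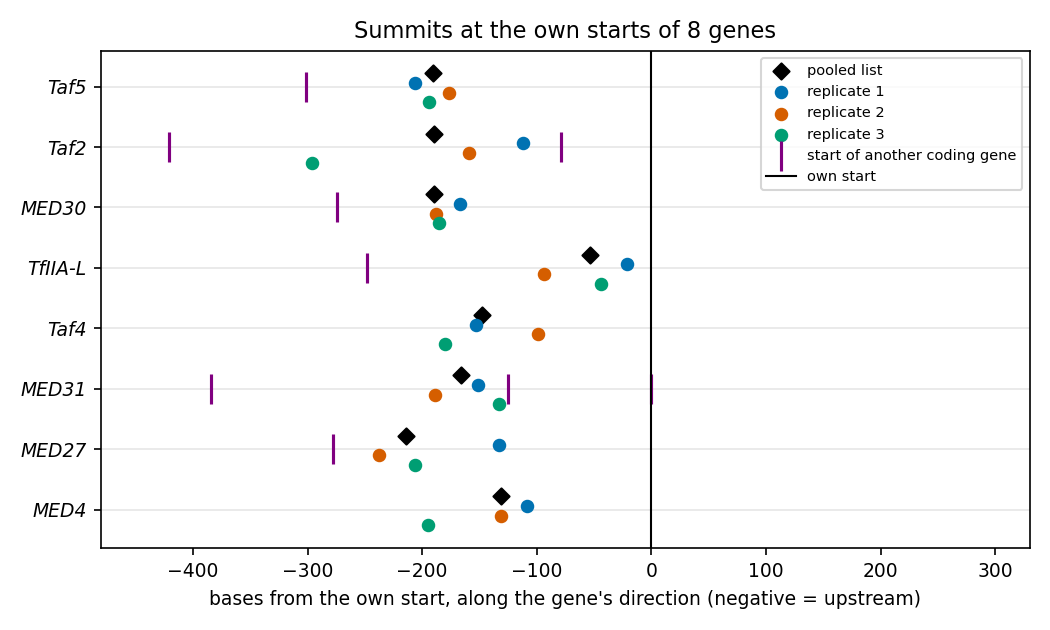
Position of summits relative to the own start of the 8 genes with an own-start IDR summit, in bases along the gene's direction, with the pooled list (diamonds) and replicates 1 to 3 (circles) drawn apart and purple bars at starts of other protein-coding genes. All summits lie upstream of the nearest own start, which is the one drawn, and for 6 of the 8 genes another gene starts within 500 bases of the pooled summit.

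Each of the 8 pooled summits lay upstream of the own start nearest to it. The Taf4 and TfIIA-L summits lie downstream of the first starts of those genes. The share of upstream summits among all promoter summits was not counted. At 6 of the 8 summits (Taf5, Taf2, MED30, TfIIA-L, MED31 and MED27) the start of another protein-coding gene was also within 500 bases. Of these, 5 were nearer to that other start, and no like share was counted over the summits of all genes. Among all 1280 IDR summits within 500 bases of a protein-coding start, 30.7% had the start of a second gene also within 500 bases. That share counts each summit once, whereas the 8 were reached through their genes. By gene, 831 of the 1584 genes with an own-start IDR summit had another protein-coding start within 500 bases of an own start. Peaks between a pair of divergent genes cannot be given to either of them from these lists. The median rank of the 8 summits was 1374.5 and median signal 202.9 (n = 8), beside 1366 and 202.7 for the 1280 summits. Ranks of the 8 ran from 370 to 2826. Median GC content of the 101 bases around the summit was 28.7%, beside 31.7%.

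The RUNX sequence was absent from these summits. It was found within 50 bases of 0 of the 8 (exact 95% interval 0 to 36.9%), beside 6.33% of all 1280 promoter summits. An interval this wide spans the share of all promoter summits, so no difference was detectable with 8 summits. Of the 29 distinct IDR summits counted anywhere for the 49 genes, 0 carried it, beside 9.36% of all 3065 IDR summits. Outside the IDR list it stood near weaker own-start summits, of Taf12 in the pooled list (rank 13564) and replicate 3 (13377), of MED19 and MED6 in replicate 2 (3932 and 17588), and of Taf8 in replicate 3 (10498). Other sequences searched at the 8 summits on both strands included the DREF site TATCGATA and the Ohler 1 core GGTCACAC. The TATA box was searched as TATAAA, the site of GATA factors as GATAAG and the E-box as CAGCTG. For the initiator the letters were TCAGTT or else TCAGTC. Of all these, a TATA box was within 50 bases of the MED27 summit, and none of the others was near any of the 8. The TATA box was near 24.3% of all promoter summits.

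Over the wider promoter window, from 250 bases before to 50 after each of the 59 annotated starts of the 49 genes, 10 starts (16.9%) held a RUNX sequence, beside 11.6% of 19607 protein-coding starts. They belong to MED6, MED18, MED19, MED21, MED26, Taf3, Taf10, TfIIA-S-2, TfIIFbeta and TfIIS, none of which had an own-start IDR summit. Only 11 of the 59 starts belong to genes with such a summit, so this lack of overlap says little. The share with such a summit among all RUNX-bearing starts was not counted. Ohler 1, an element of housekeeping promoters, was in 12 windows (20.3%, beside 6.72%) and DREF, the site of another housekeeping promoter factor, in 10 (16.9%, beside 7.99%). The initiator was in 6 (10.2%, beside 36.4%). The TATA box was in 27 (45.8%, beside 42.2%), GATA in 7 (11.9%, beside 18.4%) and the E-box in 8 (13.6%, beside 18%). Windows of close starts overlap, and a match is only the presence of these letters.

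The replicates gave like counts. Among each replicate's 3065 strongest peaks, 9, 7 and 8 genes had an own-start summit in replicates 1, 2 and 3. These are 18.4%, 14.3% and 16.3% of the 49 genes, beside 12.4%, 11.6% and 11.4% of all genes. The mean was 8 ± 1 genes (16.3% ± 2.05), beside 11.8% ± 0.529 of all genes (SD, n = 3 each). In all 3 replicates 6 genes qualified (12.2%, beside 7.23%), namely Taf5, Taf2, MED30, TfIIA-L, Taf4 and MED31. MED27 was missing in replicate 3 and MED4 in replicates 1 and 2. The replicates shared a control alignment, so their lists are not fully independent.

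Deeper in the lists, 24 of the 49 genes had an own-start summit in the pooled list (49%, beside 42.8% of all genes). In the full lists of single replicates the counts were 30, 25 and 23, or 61.2%, 51% and 46.9%, beside 48.1%, 44.8% and 43.5% of all genes. In the full lists of all 3 replicates 13 genes had one (26.5%, beside 29.6%). Among the 6130 strongest peaks the shares were 34.7%, 30.6% and 28.6% in replicates 1, 2 and 3, beside 20.9%, 19.3% and 19.3% of all genes. In the pooled list at the same depth they were 22.4% and 19.5%. Among the 10000 strongest peaks they were 40.8%, 34.7% and 28.6% in replicates 1, 2 and 3, beside 28.4%, 26.5% and 26.5% of all genes. In the pooled list at that depth they were 30.6% and 26.2%. No test of these differences was made, because the genes were chosen with earlier results of these data known.

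**Figure D2:**
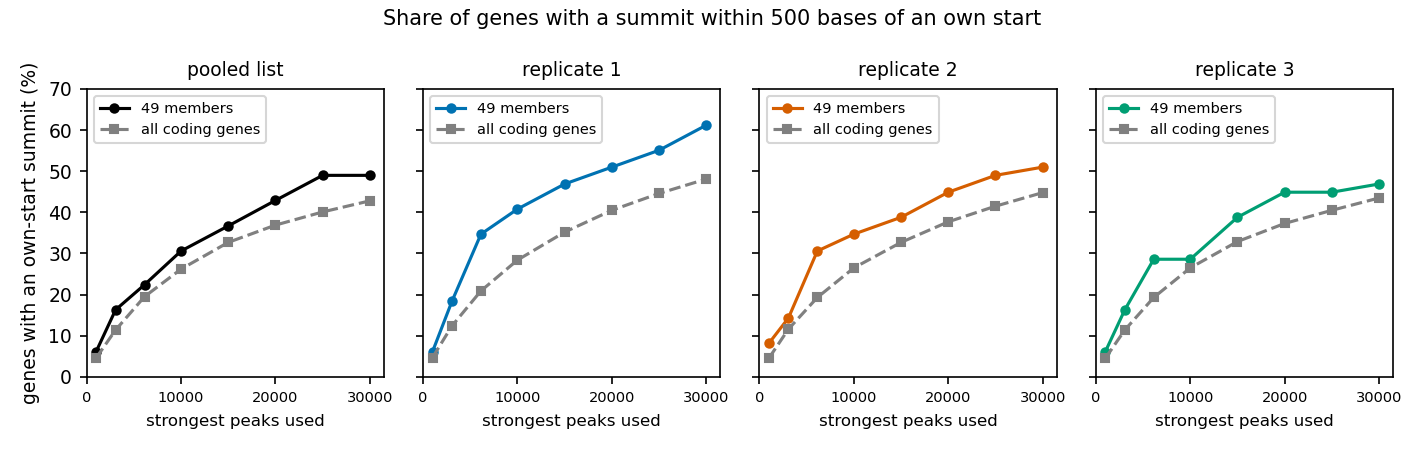
Percentage of genes with a summit within 500 bases of an own start against the number of strongest peaks used, in the pooled list and in each replicate, for the 49 genes (solid) and all protein-coding genes (dashed grey). The solid line ends at 49% in the pooled list and at 61.2%, 51% and 46.9% in replicates 1 to 3, and the dashed line at 42.8%, 48.1%, 44.8% and 43.5%.

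Just below the IDR list stood the head subunit gene MED17, the tail subunit gene MED16, and MED28. MED17, whose product is a scaffold of the head, ranked 7377, 4531 and 4219 in replicates 1, 2 and 3 and 4067 in the pooled list, with a pooled signal of 111.3. MED16 ranked 3191, 5726 and 5436 in the replicates and 4209 in the pooled list (signal 109.1). MED28 ranked 4655, 7195 and 11339 in the replicates and 4672 in the pooled list (signal 103.6). The pooled summit of each was nearer to the start of a neighbour, CG12321, CG11170 and CG4553. For comparison, MED4 was the lowest-ranked gene inside the list, at 2826.

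In all, 16 genes had an own-start pooled summit below the IDR list (32.7%, beside 31.5% of all genes), at pooled ranks of 4067 to 21893. After those 3 came TfIIS at 8747, Taf10 and its paralog Taf10b at 8974, TfIIEalpha at 9680 and MED25 at 10385. Taf10 and Taf10b are divergent neighbours and share 1 summit, 16 bases upstream of the one and 29 of the other. The weaker ones were Taf12 (13564), MED23 (13653), MED20 (15510), TfIIA-S (15630), Taf8 (15966), Taf6 (20833), MED14 (21755) and Taf13 (21893). The MED20 summit lies nearest to the start of Trf, which encodes a TBP-related factor and so belongs to the same machinery.

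**Figure D3:**
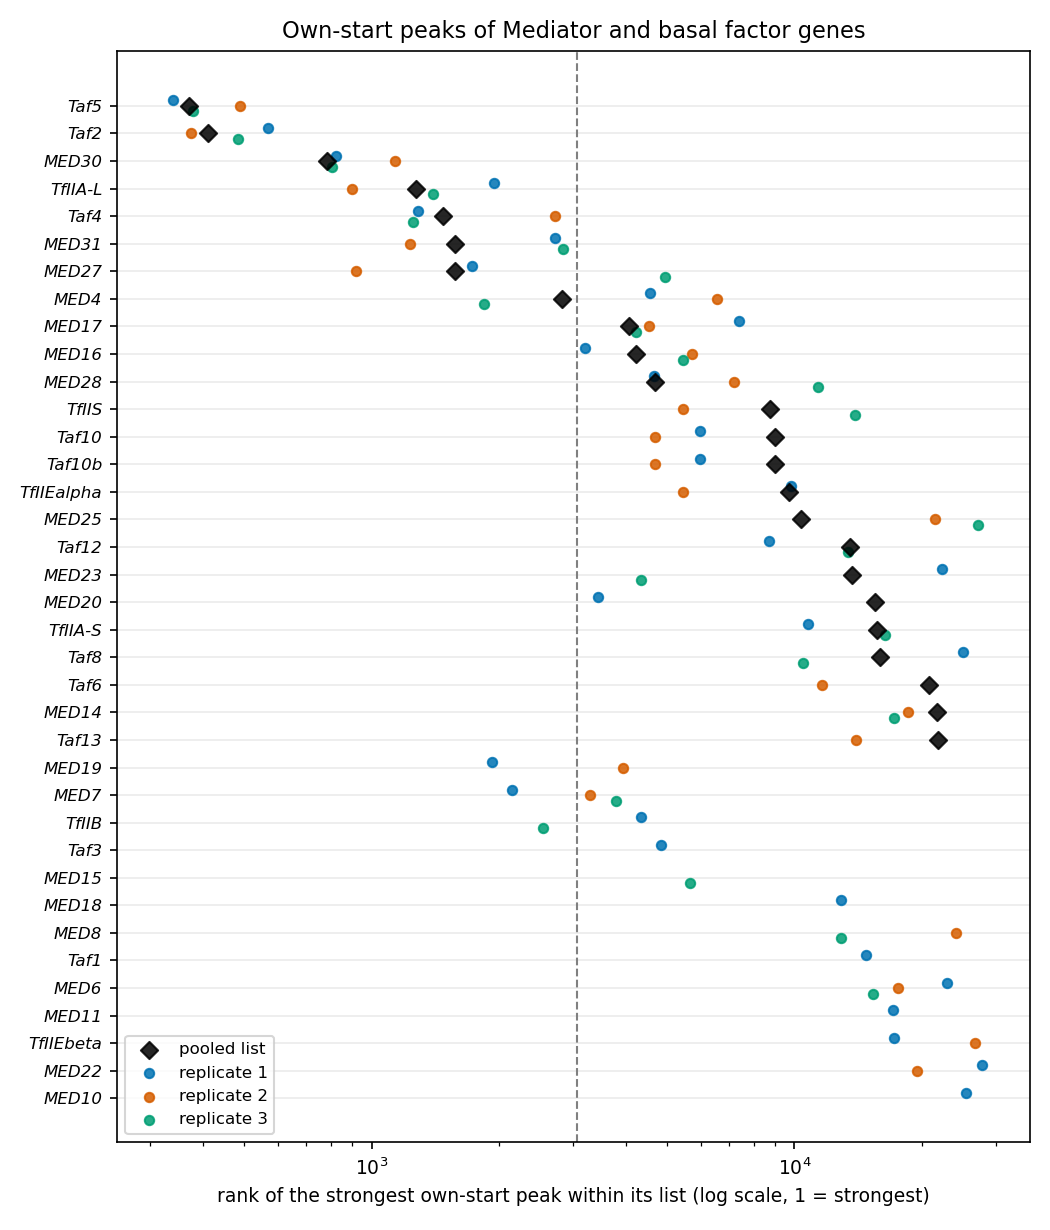
Rank of the strongest own-start peak (log axis, 1 is the strongest) for the genes with one in any list, in the pooled list (diamonds) and replicates 1 to 3 (circles), with the end of the IDR list at rank 3065 as a dashed line. Taf5 to MED4 lie left of the line in the pooled list, and genes from MED19 down have circles but no diamond.

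A further 13 genes had an own-start summit in at least 1 replicate but not in the pooled list (26.5%, beside 19.8% of all genes). For MED15 and MED8 a pooled peak overlapped a replicate peak with its own summit just past the distance limit, at 551 and 613 bases, the pooled peak of MED15 being that of IDR rank 387. In 2 of them, MED7 of the middle module and MED6 of the head, all 3 replicates had it (4.08%, beside 0.968%, or 135 genes). MED7 ranked 2144, 3293 and 3787 in replicates 1, 2 and 3, with signals of 40.5, 47.6 and 51.7 and summits 104, 53 and 22 bases upstream of its start. The nearest pooled summit was 14438 bases away, at rank 8307. MED7 shares its promoter with Cap-H2, a condensin II gene. MED6 ranked 22882, 17588 and 15316, deep in every replicate.

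MED19, a head subunit gene, ranked 1926 and 3932 in replicates 1 and 2 and was missing from replicate 3. TfIIB, whose product positions the polymerase at the start, ranked 4326 in replicate 1 and 2537 in replicate 3 and was missing from replicate 2. Their nearest pooled summits were 3374 and 11095 bases away. Over the whole series, 89, 39 and 38 of the 3065 strongest peaks of replicates 1, 2 and 3 were not overlapped by any pooled peak (2.9%, 1.27% and 1.24%). What left them out of the pooled list was not tested. The others of the 13 were Taf1, Taf3, MED8, MED10, MED11, MED15, MED18, MED22 and TfIIEbeta, and apart from Taf3 (rank 4837) and MED15 (5667) their best replicate ranks ran between 12848 and 25461.

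No own-start summit stood in any list for 12 genes (24.5%, beside 37.4% of all genes). They are MED1, MED9, MED21 and MED26 of the middle module, MED24 of the tail, and Taf7, Taf9 and Taf11 of TFIID. The others are the testis TAF homolog Taf12L, the TFIIA paralog TfIIA-S-2, and both TFIIF genes, TfIIFalpha and TfIIFbeta. As the lists end at 30000 peaks, binding weaker than that was not detectable in them.

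By module, own-start IDR summits fell at 0 of 8 head, 2 of 8 middle, 0 of 6 backbone and tail genes, and 2 of 3 genes whose products lie between head and tail. They fell at 3 of 15 TFIID genes, 1 of 8 general factor genes, and not at TfIIS. MED29, a further subunit between head and tail, matched no symbol here and was not looked up under other names, so it is not counted. With so few genes per module, these counts say little about differences between modules, and none was tested. By arm, the counts were 0 of 9 on 2L, 1 of 5 on 2R, 4 of 14 on 3L, 3 of 14 on 3R, 0 of 2 on chromosome 4 and 0 of 5 on X. The shares of all genes on these arms were 12.4%, 11.2%, 12.4%, 11.5%, 1.25% and 9.2%.

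Neighbouring promoters were common among these genes. Another protein-coding start lay within 500 bases of an own start in 30 of the 49 (61.2%), beside 4309 of all genes (30.9%). Among genes with such a neighbour, 6 of 30 (20%) had an own-start IDR summit, beside 831 of 4309 (19.3%). Among genes without one, 2 of 19 (10.5%) had it, beside 753 of 9636 (7.81%). Pooled summits were at 17 of 30 (56.7%, beside 57.3%) with a neighbour and at 7 of 19 (36.8%, beside 36.3%) without. No difference between these shares was tested.

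**Figure D4:**
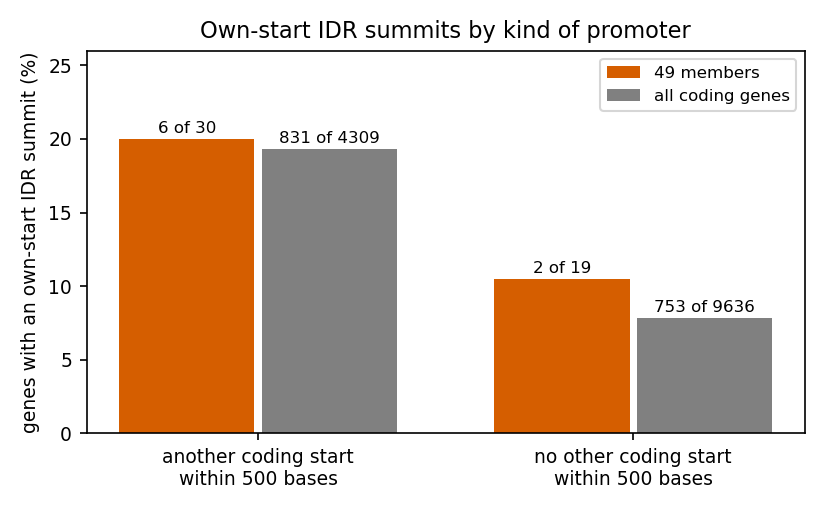
Percentage of genes with an own-start IDR summit, for the 49 genes (orange) and all protein-coding genes (grey), split by whether another protein-coding gene starts within 500 bases. The bars stand at 20% and 19.3% with a neighbouring start and at 10.5% and 7.81% without one, with the numbers of genes above them.

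When summits in the gene span or within 5 kb were counted, 23 of the 49 genes had an IDR summit (46.9%, interval 32.5 to 61.7, beside 33.8% of all genes). These genes are short, with a median span of 1330 bases, beside 2166 of all genes, and 2 of the 49, Taf4 and TfIIA-L, had an IDR summit within the span itself (4.08%, beside 9.21% of all genes). Of the 23, 15 had IDR summits only away from their own starts. The 22 pairs of a gene and a summit away from its own starts rest on 21 distinct summits, of which 14 lay within 500 bases of another protein-coding start and 7 of none.

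MED15, a tail subunit gene, had the most, with 6 summits. The strongest ranked 3 in the whole list (signal 1519.8, chr2L:480883-481293) but lies 8076 bases downstream of the MED15 start inside ush, which encodes the GATA cofactor U-shaped. The next, at rank 162, lies 373 bases from the start of cbt, also inside ush. The other 4, at ranks 387, 944, 1384 and 2153, lie upstream of MED15, with CG4297 as the nearest start. None of the 6 is nearest to MED15.

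Summits counted for TFIID genes in this way were likewise nearest to neighbours. Taf13 had rank 168, 37 bases from the start of CG10747. Taf10 and Taf10b shared rank 504, at Snx21 and the gamma-secretase gene aph-1. Taf12 had rank 589 (CG18476), Taf9 rank 1068 (Ucp4A and CG8142) and Taf11 rank 2100 (zf30C, a zinc-finger gene).

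Among Mediator genes, MED28 had rank 409 (Vps33B and Fur1), MED6 rank 761 (CG9471), MED14 rank 823 (Kah), MED10 rank 2132 (l(3)72Dn and Tmx3) and MED18 rank 2148 (deltaCOP). Of the general factors, TfIIA-S had ranks 386 and 629, both inside Pli, and TfIIEalpha rank 2279, 16 bases from the start of Sugb. TfIIS had rank 1935, inside the myosin gene ck. The remaining 26 genes had no IDR summit in this range. Of these, 11 had no pooled summit in it either, among them MED1, MED7, MED26, Taf3, Taf7, TfIIB and both TFIIF genes. The share of all genes with no pooled summit in this range was not counted, so whether 11 is unusual cannot be said.

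**Figure D5:**
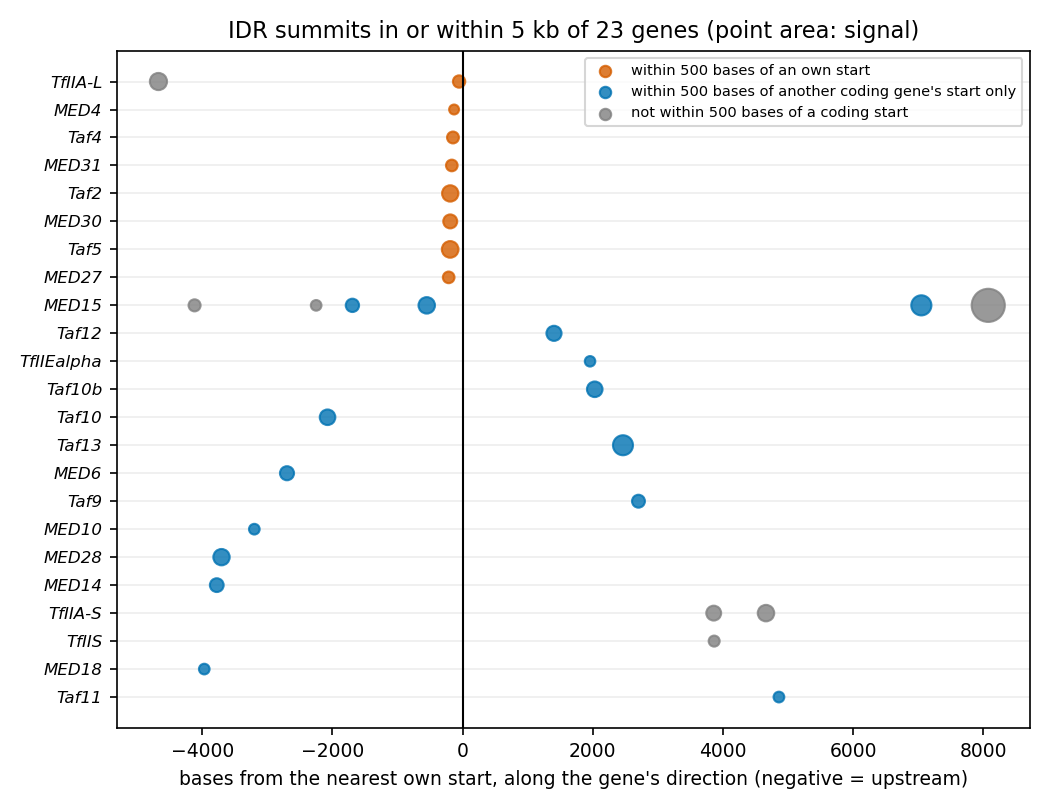
Distance from the nearest own start, in bases along the gene's direction, of the IDR summits counted for the 23 genes, with point area scaled to signal and colour showing whether the summit lies within 500 bases of an own start, of another gene's start only, or of none. Orange points of 8 genes stand just upstream of 0, and the largest point is the rank 3 summit counted for MED15.

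The other genes of the same machinery, whose symbols the rule does not match, had IDR summits at shares near those of all genes. Of 34 such genes, 4 had an own-start IDR summit (11.8%, beside 11.4% of all genes), 17 a pooled one (50%, beside 42.8%) and 12 an IDR summit in the span or within 5 kb (35.3%, beside 33.8%). The 4 were Ssl1 and Xpd of the repair and transcription factor TFIIH (ranks 16 and 1713), the polymerase subunit gene Polr2B (1100) and skd, of the Mediator kinase module (1434). The Ssl1 peak, with a signal of 1210.7 and its summit 178 bases from the start, was stronger than any own-start peak of the 49 genes. By group they came to 1 of 4 kinase module genes, 0 of 3 of the TBP family, 2 of 10 of TFIIH, 0 of 4 testis TAF homologs and 1 of 13 polymerase II subunit genes. A further testis TAF homolog, Taf12L, is among the 49 genes and is not counted here. In other gene sets taken by symbol, paralogs such as Prosalpha4T1 and Rpt3R included, own-start IDR summits were at 3 of 48 proteasome genes (6.25%). They were at 55 of 92 cytoplasmic ribosomal protein genes (59.8%). Not all paralogs in these sets need be housekeeping genes.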

How the data were processed

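ChIP-seq peaks of 3 replicate libraries were used as the deposited lists (3 replicate lists, 1 pooled, 1 IDR), with dm6 positions per the labels. The signal of each peak is the authors' deposited value, of unstated scaling. The deposited −log10 q-value took 1 value over the IDR list and was not used. Per the readme files, replicates were called against a shared control alignment. Aligner, peak caller and IDR cutoff: not given in the sources used here. Read depth is unknown, and intervals cover counting error only.

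Genes and starts came from the Ensembl release 115 annotation, whose arm lengths equal those of dm6, and sequence from Release 6. Coordinates are 1-based. A summit within 500 bases of an annotated start of a gene, or in its span or within 5 kb, was counted for that gene, so 1 summit can count for several genes. Peaks overlapped when they shared at least 1 base. Full values are given for genes with an own-start IDR summit, ranks and nearest starts for genes with IDR summits elsewhere and for those just below the list, and names or ranges for the rest. Genes, lists and rules were chosen with earlier results of these data known, so counts stand beside those of all genes with no test. The distance function alone was checked on planted summits, against the same formula, which does not test the assignment of peaks to genes. Alternatives were other distances, other list lengths, leaving out each replicate, nearest start alone and other motif forms. For the IDR list, leaving out a replicate meant keeping the peaks that overlapped the strongest peaks of both other replicates. Software was matplotlib 3.10.9, scipy 1.17.1, pandas 2.3.3 and numpy 2.4.6 under Python 3.11.15.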

Additional observations from a re-analysis of the deposited data

How the results depend on the processing

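Of 43 alternatives over 7 counts, 36 stayed within 1.5 times the value reported. The count of 8 genes with an own-start IDR summit was 5 in the stronger 1532 peaks (6.45% of all genes) and 3 when a summit counted only for the closest protein-coding start. It was 8 at 250 bases (8.86% of all genes), 9 at 1000 bases (13.7%) and 11 in the 6130 strongest pooled peaks (19.5%). The count of 23 genes with an IDR summit in the span or within 5 kb was 2 in the span alone, 14 within 2000 bases, 15 in the stronger 1532 peaks and 3 by the closest start. The shares of all genes were 9.21% in the span alone, 23% within 2000 bases and 21.6% in the stronger peaks. The 13 genes with an own-start summit in all 3 full replicate lists became 21 at 1000 bases. Shares of all genes were not counted for this setting or for the closest-start rule. That rule can only lower a count, for any set of genes. Without replicate 1, 2 or 3, own-start IDR counts were 6 to 7 and span counts 18 to 19, in IDR lists shortened to 2147, 2018 and 1986 peaks. Counts over the strongest peaks of the remaining pair of replicates were 6 to 7, and over their full lists 17 to 19. Shares of all genes were not counted with a replicate left out, so whether these counts are unusual cannot be said. In each of the shortened IDR lists, summits nearest to an own start numbered 2. In the whole IDR list they numbered 3 among protein-coding starts and 2 among the starts of all annotated genes. The RUNX sequence was at 0 of the own-start summits under each alternative run. In the IDR list these included windows of 100 bases to each side and the 6-base core. The 6130 strongest pooled peaks were searched only with the main sequence within 50 bases. No paired analysis was possible because there was 1 group only. Depth is unknown, so weak binding below the lists cannot be judged.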
